A study of Rattus norvegicus with 2 samples.

Results

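Genes of the ion channel receptors that open when glutamate, glycine, GABA, acetylcholine or ATP binds were followed in cultured skeletal muscle stem cells. The members were all genes of the array whose symbol starts as that of an AMPA, kainate, NMDA or delta glutamate receptor subunit, a GABA-A or glycine receptor subunit, a nicotinic acetylcholine receptor subunit or a P2X receptor. The rule used symbols and no measured value, but it was set with earlier results of these data known. It gave 66 genes on 68 probe sets, out of 18489 named genes. They were 4 AMPA, 5 kainate, 7 NMDA and 2 delta receptor genes, 5 glycine, 16 GABA-A and 3 GABA-A rho receptor genes, 5 muscle and 11 neuronal nicotinic genes, and 7 P2X genes. The remaining member, Grid2ip, is matched by its symbol but encodes a scaffold protein that binds the delta receptor, not a channel subunit.

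The cells, called MDSC by the labels, came from male obese Zucker fa/fa rats, whose leptin receptor is defective, so that the animals overeat and lose insulin sensitivity. One sample is labelled late diabetes and the other early diabetes, and cell type, strain and sex are the same for both. Both were cultured in DMEM with 20% serum. The labels name 5.6 mM and 22 mM glucose for each sample and do not say which of these levels either array had. Rat age and the number of rats or wells behind an array are not given, and no non-diabetic or lean group is labelled. With a single Affymetrix Rat Gene 1.0 ST array per sample there is no spread between cultures, no SD and no test. Every difference below describes these 2 arrays only.

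Ligand-gated receptors are rings of subunits around a pore, and the subunits chosen set which ions pass and how fast the channel closes. Glutamate and P2X receptors and nicotinic receptors pass cations and excite the cell, while GABA-A and glycine receptors pass chloride. In skeletal muscle the nicotinic receptor of the neuromuscular junction starts contraction. P2X receptors sense ATP released by working or injured cells. In rat muscle P2rx5 is known from satellite cells.

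Values are log2 of the authors' normalized intensity. The floor for comparison was log2 8.03, the median over all genes and both arrays, and a gene counted as compared if at least 1 of its arrays reached it. The background level, log2 6.83, is the value that 95% of 1200 olfactory receptor genes stay under, on the untested assumption that most of these are silent here. A fold is given as "at least" when the dimmer value lies below that level, and no fold is given when both do. Levels of different genes are not ranked, because probe sets differ in brightness for the same amount of RNA.

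Most receptor genes were dim in both arrays. Of the 66, 6 (9.09%) reached the floor for comparison, against 52.7% of all genes, and 21 (31.8%) lay above the background level in at least 1 array, against 71.3% of all genes. The 6 compared genes were Grik2, Grik5, Gria3, Glra1, P2rx4 and P2rx5. Glra1 was the 1 gene of the 6 past 2-fold upward in the late array, where 5.84% of all 9738 compared genes were. Grik2 and Grik5 were the 2 past 2-fold downward, where 3.11% of all compared genes were. Glra1 reached the floor in the late array only, and Grik2 and Grik5 in the early array only. These calls thus rest on genes that passed the filter through their brighter array. Gria3, P2rx4 and P2rx5 reached the floor in both arrays, and none of them was 2-fold apart. With 6 genes, a single gene moves the share by more than these percentages. At 1.5-fold the counts were again 1 higher (12.1% of all compared genes) and 2 lower (6.48%). A 3-fold threshold left Grik2 alone, the 1 lower gene (1.32%), with 0 higher (2.43%). The median difference of the 6 was 0.14, against 0.06 for all compared genes. With dim genes counted too, Gabre joined Glra1, giving 2 of the 66 past 2-fold upward (3.59% of all genes) and 2 downward (1.86%). The same 4 genes were the ones past 2-fold among the 21 above background, where 4.92% of 13184 genes were higher and 2.53% lower. The remaining 2 of the 6 genes at least 1.5-fold apart (12.1% of all genes) were Gria2 and Glrb, and 60 lay within 1.5-fold. Gria3 and P2rx4 alone passed the 75th percentile of brightness and neither was 2-fold apart, where 5.49% of 5103 genes were higher and 3.47% lower.

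**Figure D1:**
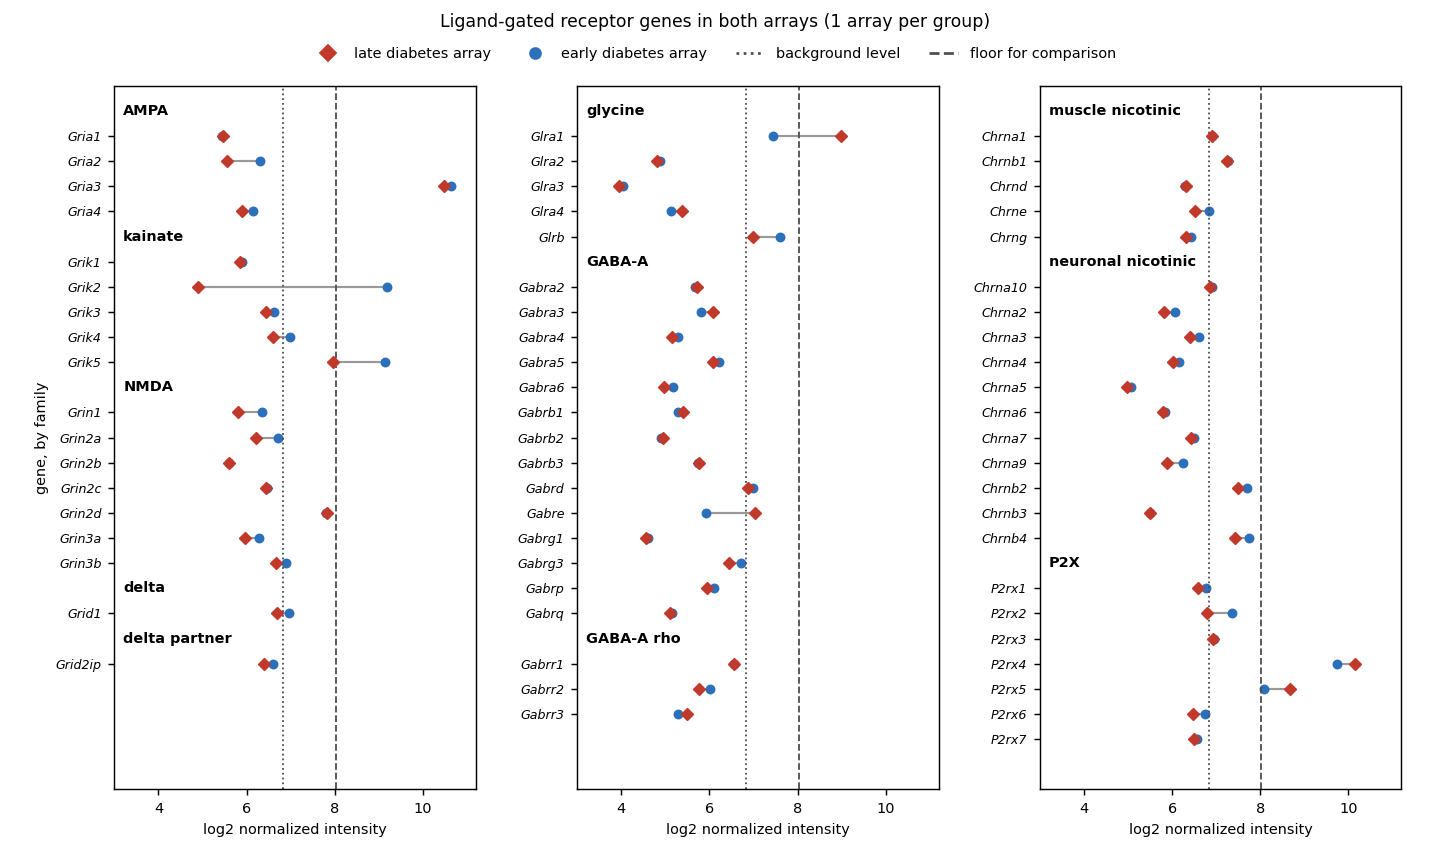
Log2 normalized intensity of the receptor genes shown (a few members are left out), in the late (red diamonds) and early (blue circles) diabetes array, 1 array per group, by family, with the background level (dotted, 6.83) and the floor for comparison (dashed, 8.03). Most pairs of points lie left of the floor and close together, while Grik2, Grik5, Glra1 and Gabre have wide gaps.

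The sequences around the start sites of Grik2, Grik5 and Gabre are shown because these genes had 3 of the 4 measured differences past 2-fold, Grik2 and Grik5 downward and Gabre upward. The fourth was Glra1, for which no promoter entry was found. The early value of Gabre lies below background, so its fold is only at least 1.15. Each runs 5′ to 3′ from 250 bases before to 50 bases after the start site of the RefSeq gene in GRCr8. The Grik2 stretch is chr20:54415234-54415533, minus strand, that of Grik5 is chr1:89794860-89795159, minus strand, and that of Gabre is chrX:155120672-155120971, minus strand. Capitals mark matches on either strand to an E-box (CANNTG), an AP-1 site (TGANTCA), a GC box (GGGCGG) or a core of the REST element (GGACAGC). In the stretches shown no 2 matches overlap.
Grik2: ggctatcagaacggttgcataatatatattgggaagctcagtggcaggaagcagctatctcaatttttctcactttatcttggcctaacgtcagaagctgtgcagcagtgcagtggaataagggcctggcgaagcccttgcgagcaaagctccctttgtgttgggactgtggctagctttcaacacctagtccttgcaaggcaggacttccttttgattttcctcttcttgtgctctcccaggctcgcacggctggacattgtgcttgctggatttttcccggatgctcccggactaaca
Grik5: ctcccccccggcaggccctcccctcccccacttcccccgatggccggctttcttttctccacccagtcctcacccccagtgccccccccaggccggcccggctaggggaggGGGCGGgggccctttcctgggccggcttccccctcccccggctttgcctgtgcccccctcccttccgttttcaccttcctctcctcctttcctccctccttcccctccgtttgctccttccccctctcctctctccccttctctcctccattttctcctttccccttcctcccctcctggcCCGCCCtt
Gabre: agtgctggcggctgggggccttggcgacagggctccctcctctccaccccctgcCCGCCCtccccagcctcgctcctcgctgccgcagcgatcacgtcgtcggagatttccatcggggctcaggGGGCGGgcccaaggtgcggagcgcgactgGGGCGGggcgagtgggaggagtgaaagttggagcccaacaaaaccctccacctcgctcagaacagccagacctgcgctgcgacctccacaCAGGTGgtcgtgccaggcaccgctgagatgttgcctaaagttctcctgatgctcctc
The Grik2 stretch held none of these 4 motifs and was 50.3% G and C. Grik5 held 2 GC boxes at 69.0% G and C, and Gabre held 3 GC boxes and 1 E-box at 67.3% G and C. Of all 33469 promoters in the table, 72.1% held an E-box, 33.1% a GC box, 7.33% the AP-1 letters and 6.59% the REST core letters, and the median G and C content was 51.7%. Entries were found for 47 of the 66 genes, with 49 promoters, of which 32 held an E-box and 23 a GC box. These are matches of letters, and the arrays did not measure binding.

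Kainate receptor genes held the widest gap. Grik2 encodes GluK2, a subunit that can form kainate receptors alone, and stood at log2 4.90 in the late array and 9.18 in the early array (intensities of 29.9 and 580.1). The late value lies below the background level and the early value well above it, so Grik2 was at least 5.11-fold lower. Its measured difference of -4.28 was the eighth lowest of the 9738 compared genes, a place that rests on the dim late value. Grik5 encodes GluK5, a high-affinity subunit that needs a partner such as GluK2 to form a working channel. It was at 7.96 in the late array and 9.14 in the early array (249.6 and 564.5), both above background, and so 2.26-fold lower.

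The other kainate subunits were dim. Grik4, the second high-affinity subunit, had 6.60 in the late array, below background, and 6.99 in the early array, just above it. Grik1 (5.84 late, 5.89 early) and Grik3 (6.45 late, 6.63 early) were below background in both, and no fold is given. All 5 kainate genes were lower in the late array as deposited, and 4 of 5 after quantile normalization or removal of the brightness trend. Of all genes 56.0% were lower as deposited. That share was 70.8% among genes under the floor in both arrays, where Grik1, Grik3 and Grik4 lay.

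Markers of other cell types are given here because neurons are the best-known source of kainate receptors. Of 15 neuron markers, 9 were above background in each array and 5 below it in both, where 71.3% of all genes were above it in at least 1 array. Their summed intensity was 11906 in the late array and 13199 in the early array. Rbfox3, a nuclear marker of mature neurons, was at 7.05 in the late and 7.42 in the early array, under the floor. The synaptic vesicle gene Syt1 (6.10 late, 6.62 early) was below background. Other markers under the floor were higher in the late array, Snap25 (7.36 late, 7.12 early), Nefh (7.12 late, 6.84 early) and Ina (7.34 late, 6.72 early). The median difference of all 15 neuron markers was -0.03. Map2, a dendritic protein gene, was at least 3.13-fold lower (6.59 late, 8.47 early), and Stmn2 was 1.70-fold lower (11.50 late, 12.27 early). The other 2 of the 4 compared neuron markers were slightly higher, Tubb3 (9.69 late, 9.35 early) and Uchl1 (12.75 late, 12.58 early). The 17 muscle fibre markers summed to 5411 in the late array and 10299 in the early array. Most of that gap lies in the myosin genes Myh1, 3.01-fold lower (10.75 late, 12.34 early), and Myh2, at least 12.3-fold lower (6.20 late, 10.45 early), while the actin gene Acta1 was at 10.68 late and 10.57 early. The part of these genes' cells in the Grik2 and Grik5 differences was not tested. In RNA from a whole culture, fewer cells of a type and less RNA per cell cannot be told apart.

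AMPA receptors carry most fast excitation in the brain. Among their 4 genes Gria3, which encodes the GluA3 subunit, was bright, at 10.48 in the late array and 10.63 in the early array. Both arrays gave nearly the same value, and the fold was 1.11 lower in the late array. Gria1 (5.47 late, 5.45 early), Gria2 (5.55 late, 6.30 early) and Gria4 (5.90 late, 6.14 early) were below background in both arrays. Gria2 encodes the subunit that keeps calcium out of the AMPA channel. Its measured difference of -0.75 was the widest among receptor genes below background in both arrays, and no fold can be given for it.

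NMDA receptors need the GluN1 subunit, which glycine binds, and its gene Grin1 was below background in both arrays (5.81 late, 6.36 early). Grin2d, a subunit of slow-closing NMDA channels, was at 7.82 in the late array and 7.80 in the early array, above background but under the floor. The other NMDA genes stayed at or near background, with Grin3b above it in the early array (6.67 late, 6.89 early). Over the 7 NMDA genes late values ran from 5.61 to 7.82 and early values from 5.61 to 7.80. Grid1 encodes a delta receptor, which binds synapse organizers rather than glutamate. It was at 6.68 late and 6.95 early over 2 probe sets, with differences of -0.22 and -0.32. Grid2ip (6.40 late, 6.59 early) was below background.

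**Figure D2:**
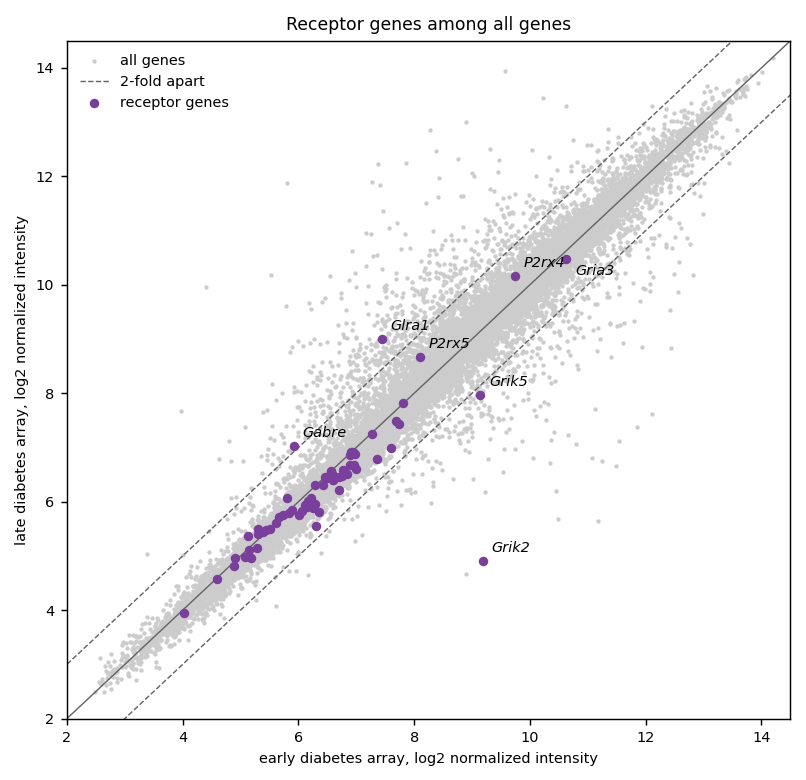
Late diabetes array against early diabetes array, log2 normalized intensity, for all 18489 genes (grey) and the 66 receptor genes (purple), with lines of equality (solid) and of a 2-fold difference (dashed). Grik2 lies far below the lines, Grik5 just below, Glra1 and Gabre above, and most other receptor genes sit at the dim end along the diagonal.

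Genes that carry, edit or anchor glutamate receptors included several wide differences. Of 40 measured partner genes 20 were compared, and in the late array 5 of them exceeded 2-fold upward and 1 downward, against the 5.84% and 3.11% of all compared genes. The median of the 20 was 0.14, against 0.06 for all compared genes. This list and the other lists were chosen with earlier results of these data known, so their counts are a description only. Neto2, an auxiliary subunit of kainate receptors, was at 9.87 in the late array and 7.62 in the early array, 4.75-fold higher, while Grik2 and Grik5 were lower. Its relative Neto1 was below background in both (5.90 late, 5.91 early). Adarb1 encodes an RNA-editing enzyme that recodes Gria2 and Grik2 transcripts. It was at 8.01 in the late array and 9.97 in the early array, 3.88-fold lower.

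Cacng7, an auxiliary subunit of AMPA receptors, was 4.59-fold higher (10.66 late, 8.46 early). The other 3 of the 5 higher partners are named after their values were seen. Cnih2, the cornichon protein that escorts AMPA receptors, was 3.96-fold higher (10.66 late, 8.67 early). Homer2, a scaffold of metabotropic glutamate receptors, was 3.76-fold higher (9.44 late, 7.53 early). Grip1, an anchor of GluA2 and GluA3, was 2.31-fold higher (8.77 late, 7.56 early). These higher values stood beside a Gria3 level that was nearly equal in both arrays.

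**Figure D3:**
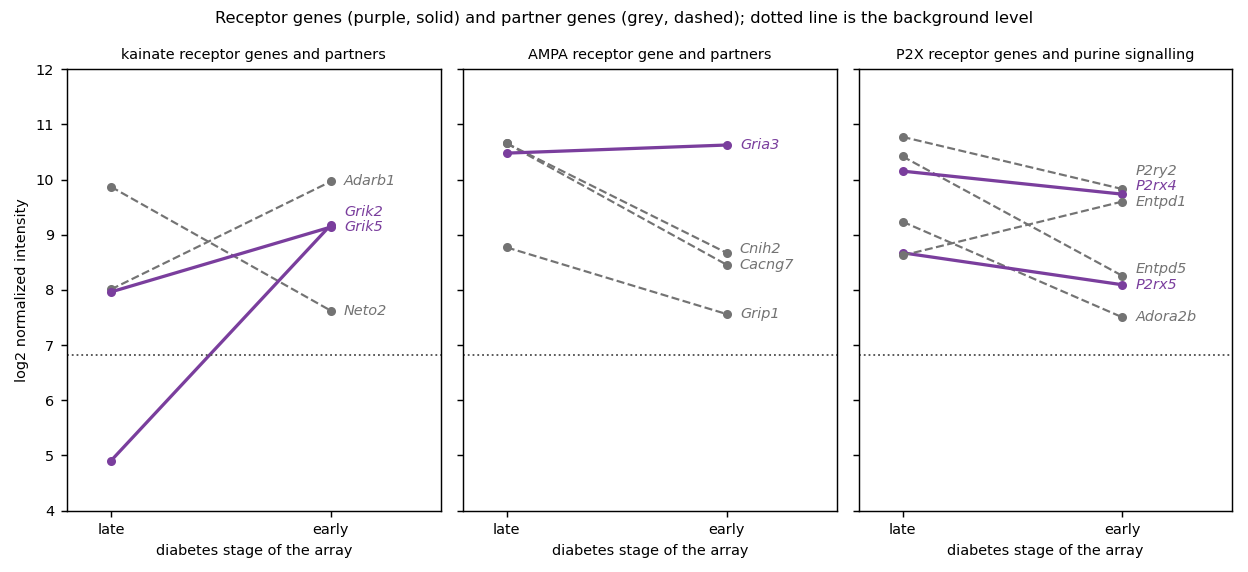
Log2 normalized intensity in the late and early array, 1 point per array, of kainate, AMPA and P2X receptor genes (purple, solid) and of partner genes (grey, dashed), with the background level (dotted, 6.83). Grik2 and Grik5 have lower late values and Neto2 a higher one, Gria3 is level while Cnih2, Cacng7 and Grip1 are higher in the late array, and P2rx4 and P2rx5 are slightly higher.

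Glycine receptor genes split. Glra1 encodes the alpha1 subunit, which binds glycine, and was at 8.99 in the late array and 7.44 in the early array (intensities of 509.1 and 173.3). Both values are above background, and Glra1 was 2.94-fold higher, the 251st highest difference of the 9738 compared genes. Glrb encodes the beta subunit, which ties the receptor to the scaffold gephyrin, and was at 6.99 in the late array and 7.61 in the early array. That is 1.53-fold lower, from values under the floor. Glra2, Glra3 and Glra4 were below background in both arrays, between 3.94 and 5.37 in the late array and between 4.03 and 5.12 in the early array.

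GABA-A receptor genes were at background but for Gabre and Gabrd. Gabre encodes the epsilon subunit, which makes GABA-A receptors insensitive to many anaesthetics, and was at 7.03 in the late array and 5.92 in the early array. The measured difference of 1.12 shrinks to at least 1.15-fold against the background level. Gabrd, the delta subunit of receptors outside synapses, was at 6.87 late and 6.99 early. The other 14 GABA-A genes and the 3 rho genes were below background in both arrays. Of 12 compared partner genes of GABA and glycine receptors 0 were past 2-fold in either direction, against 5.84% upward and 3.11% downward of all compared genes. Their median was -0.04, against 0.06. The scaffold gene Gphn was at 9.81 in the late and 9.96 in the early array.

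The muscle nicotinic receptor is built from alpha1, beta1 and delta subunits with gamma in fetal muscle or epsilon in adult muscle, and none of its 5 genes reached the floor. Chrna1, the acetylcholine-binding subunit, was at 6.91 in both arrays, with identical deposited values. Chrnb1 was at 7.25 in the late array and 7.28 in the early array, above background in both. Chrnd (6.31 late, 6.29 early) and Chrng (6.31 late, 6.42 early) were below background. Chrne was at 6.52 late and 6.84 early, the early value at the background level. The 5 genes lay within 1.5-fold between the arrays.

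Genes that build the neuromuscular junction around this receptor were bright enough to compare more often than the receptor itself. Of 22 measured 13 were compared, a share not far from the 52.7% of all genes. Of these 13, 0 were past 2-fold upward or downward, where 5.84% and 3.11% of all compared genes were. Their median was -0.17, against 0.06 for all compared genes. Musk, the kinase that starts receptor clustering, was under the floor (7.41 late, 6.98 early), and so was Rapsn, the protein that holds receptors together (7.08 late, 7.19 early). These 2 are named for their roles after their values were seen. Sntb1, a syntrophin of the membrane skeleton, was 1.78-fold higher (11.90 late, 11.07 early). Etv5, a transcription factor of junction nuclei, was 1.52-fold lower (8.80 late, 9.40 early).

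The check of the labelled cell type bears on these genes. Of 12 satellite cell and myoblast markers 4 were compared, and Ncam1 was bright (12.05 late, 11.98 early). Of the other 3, Itga7 was 2.89-fold lower (8.84 late, 10.37 early), Megf10 2.42-fold lower (8.32 late, 9.60 early) and Des 1.58-fold higher (8.28 late, 7.61 early). The transcription factor genes Pax7 (7.38 late, 7.35 early), Myf5 (6.91 late, 7.10 early) and Myod1 (6.65 late, 6.85 early) were under the floor. Myog, which drives myoblast fusion, was at 6.85 late and 6.82 early, next to the background level. Of 12 fibroblast and mesenchymal markers 9 were compared, 3 higher and 6 lower in the late array, with Vim at 13.92 late and 14.01 early, Col3a1 2.11-fold lower and Col1a1 1.65-fold lower. Among markers of other cells, the Schwann cell gene Gldn was 9.45-fold higher (10.52 late, 7.28 early) and the endothelial gene Flt1 9.40-fold lower (7.14 late, 10.37 early). The part of these differences in the receptor values was not tested.

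Neuronal nicotinic genes, 11 in all, had 3 members above background, in both arrays. Chrnb2 was at 7.48 in the late array and 7.69 in the early array, and Chrnb4 at 7.43 late and 7.74 early. Chrna10, known in mammals from hair cells of the ear, was at 6.86 late and 6.90 early. Chrna7, which forms calcium-permeable channels of a single subunit type, was below background (6.43 late, 6.49 early). All 11 were lower in the late array as deposited, by between 0.01 and 0.36, and all 11 after median centring. The count was 7 of 11 after quantile normalization and 7 of 11 after removal of the brightness trend. Of all genes 56.0% were lower as deposited. That share was 70.9% among genes below background in both arrays, where 8 of the 11 lay. Of 3 compared helper genes of nicotinic receptors, Ly6e was 9.04-fold higher in the late array (10.54 late, 7.36 early). It encodes a surface protein of the Ly6 family and is also known as interferon-induced.

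P2X genes included both remaining compared members. P2rx4 encodes a calcium-permeable ATP receptor found on the surface and in lysosomes, and was at 10.15 in the late array and 9.74 in the early array (1140 and 853.0), 1.34-fold higher. P2rx5 was at 8.67 in the late array and 8.09 in the early array (408.3 and 273.2), 1.49-fold higher. With 1 array per group, it cannot be said whether differences of this size, 0.42 and 0.58, exceed the spread between cultures. P2rx2 was the lower counterpart, at 6.79 in the late array, just below background, and 7.36 in the early array. P2rx7, the receptor that triggers interleukin release in macrophages, was below background in both (6.50 late, 6.57 early). P2rx1 (6.59 late, 6.76 early), P2rx3 (6.92 late, 6.95 early) and P2rx6 (6.47 late, 6.75 early) were at or near it. Macrophages are another known source of P2rx4 and P2rx7. Of 17 leukocyte markers 6 were above background in each array and 10 below it in both, where 71.3% of all genes were above it in at least 1 array. Their summed intensity was 2588 in the late array and 1924 in the early array, and the pan-leukocyte gene Ptprc was below background (5.84 in each). All 3 compared markers, which macrophages carry, were higher in the late array. Cd68 and Itgax reached the floor only in the late array, so the filter itself fixed their direction. Cd14 reached the floor in both arrays. Cd68 was at least 2.45-fold higher (8.12 late, 6.77 early), Itgax 2.17-fold (8.04 late, 6.93 early) and Cd14 1.69-fold (9.57 late, 8.81 early). Under the floor, Csf1r was higher (7.91 late, 7.01 early), but Cx3cr1 (6.95 late, 7.10 early) and Ncf1 (6.60 late, 6.91 early) were lower. Emr1, Fcgr1a, Aif1 and Lyz2 were below background in both arrays. The part of macrophages in the P2rx4 difference was not tested.

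Genes of ATP and adenosine signalling went both ways. Of 27 measured 13 were compared, 4 of them past 2-fold upward and 0 downward, against 5.84% and 3.11% of all compared genes, while their median was -0.09. Entpd5, a nucleotidase of the endoplasmic reticulum, was 4.49-fold higher (10.42 late, 8.26 early). Adora2b, a low-affinity adenosine receptor, was 3.33-fold higher (9.24 late, 7.50 early), and only its late value reached the floor. The other 2 past 2-fold, named after their values were seen, were the adenosine deaminase gene Ada (3.13-fold higher) and the gap junction gene Gja1 (2.73-fold higher). P2ry2, an ATP receptor that signals through G proteins, also named after its value was seen, was 1.93-fold higher (10.78 late, 9.83 early). Entpd1, the surface enzyme CD39 that breaks down ATP, was 1.97-fold lower (8.63 late, 9.60 early). Slc17a9, which loads ATP into vesicles, was 1.83-fold lower (8.28 late, 9.15 early). Panx3, just under the floor and so not counted, was at least 2.22-fold lower (6.51 late, 7.98 early). It too is named after its value was seen. The slower receptors that signal through G proteins gave 2 compared genes of 15, Gabbr1 (9.47 late, 9.81 early) and Chrm1 (8.05 late, 8.23 early), neither 1.5-fold apart.

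**Figure D4:**
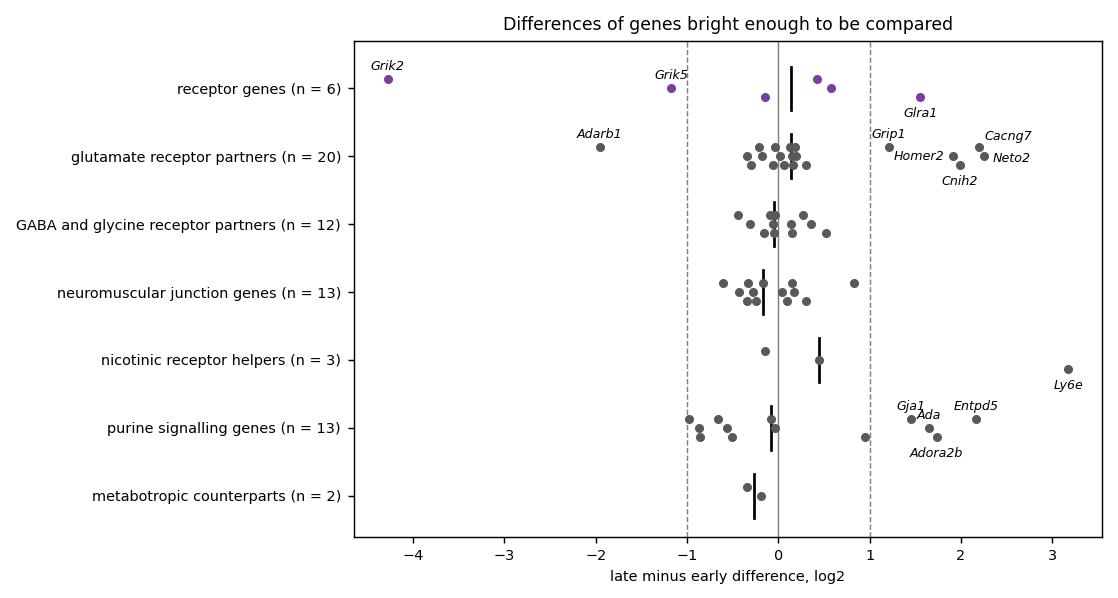
Late minus early difference on the log2 scale for compared receptor genes (purple) and compared genes of each partner list (grey), with the list's median (black bar) and lines at a 2-fold difference (dashed). The receptor genes run from -4.28 to 1.55, and points past 2-fold are named.

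Some of the receptor genes sit side by side in the genome. In the RefSeq gene order of GRCr8, 27 of the 66 members lay in 10 groups of neighbours, no more than 3 protein-coding genes apart. Gabre neighbours Gabra3 and Gabrq on the X chromosome, P2rx4 neighbours P2rx7 on chromosome 12, and Glrb neighbours Gria2 on chromosome 2. In each of these groups the other genes were below background in both arrays, which gives no direction to compare.

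Dim receptor genes leaned to lower late values, as dim genes on the array did in general. Of the 60 receptor genes under the floor 45 (75%) were lower in the late array, against 70.8% of all 8751 genes under it. Over all 66 the count was 48 lower, 16 higher and 2 equal, where 56.0% of all genes were lower. It was 36 of 66 lower after quantile normalization, 58 of 66 after median centring and 33 of 66 after removal of the brightness trend. In the same order, 10200, 12062 and 9190 of all 18489 genes were lower.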

How the data were processed

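RNA of 2 labelled samples was hybridized to 1 Affymetrix Rat Gene 1.0 ST array each. Per probe set and array the authors deposited a normalized intensity, linear, in 2 tables with identical values for all 29214 probe sets. How they normalized, and with which software and genome build, is not given in the sources used here. Log2 was taken with no pseudocount, and probe sets naming 1 gene (20164) were averaged by gene. Differences are late minus early. Normalized arrays share a scale, which hides any difference in RNA content between cells. The number of arrays limits precision: p-values and intervals cannot be given. All 66 symbols matched current RefSeq symbols (GRCr8).

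The members and lists were chosen with earlier results of these data known. Named are compared members, those past 2-fold, the muscle nicotinic genes, P2rx4, P2rx7 and Grin1, and the 2 highest and 2 lowest compared genes of each list if 1.5-fold apart. Other genes were named to complete a family or role. Some members enter the counts and ranges but are not reported singly here. Alternatives were fold thresholds of 1.5 and 3, other brightness filters, quantile normalization, lowess detrending (span 0.3), median centring, the brightest probe set and a pseudocount of 16. Software was statsmodels 0.14.6, scipy 1.17.1, pandas 2.3.3, numpy 2.4.6 and Python 3.11.15, and the calculations were tested on simulated data.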

Additional observations from a re-analysis of the deposited data

How the results depend on the processing

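In the late array 1 compared receptor gene lay past 2-fold upward and 2 downward, and both counts were the same under quantile normalization, median centring, removal of the brightness trend, the brightest probe set, the pseudocount and a 1.5-fold threshold. A 3-fold threshold left 0 higher and 1 lower, and with the 75th percentile filter, which keeps 2 receptor genes, 0 higher and 0 lower. With no filter or with the background filter 2 were higher, Gabre being added. Without Grik2, an alternative chosen after seeing the data, 1 was lower. No alternative required both arrays to reach the floor. The median difference of 0.14 became -0.10 with no filter, -0.15 with the background filter and 0.42 without Grik2, and the mean was -0.51. With so few compared genes the median rests on single genes. The difference of Grik2 was -3.70 with the pseudocount of 16. The number of receptor genes above background follows the level chosen. In at least 1 array it was 21, but 10 with the 99th percentile of olfactory receptor genes and 41 with the 95th percentile of vomeronasal receptor genes. In both arrays it was 14, 5 and 32. These 2 levels were also added after seeing the data. No paired analysis was possible because each group has 1 array. Differences of genes near background are limited by signal, and no alternative replaces the missing replicate cultures.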

Other observations

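Other ion channel genes were more often above background than the receptor genes. The share above it in at least 1 array was 60.4% of potassium channel genes and 50% of calcium, sodium and TRP channel genes, against 31.8% of receptor genes. Of 91 potassium channel genes (symbols starting Kcn) 20 (22.0%) were compared, with 1 past 2-fold upward in the late array, 2 downward and a median of -0.06. Calcium, sodium and TRP channel genes (symbols starting Cacn, Scn, Trpa, Trpc, Trpm or Trpv) numbered 62. Of these, 13 (21.0%) were compared, with 5 past 2-fold upward, 0 downward and a median of 0.51. Cacng7, also counted among the glutamate receptor partners, was 1 of the 5. Over all compared genes 5.84% were past 2-fold upward and 3.11% downward, and the median was 0.06. The share compared among the 66 receptor genes was 9.09%, and no test of these differences was made.

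Chrna1 and Grin2b had identical deposited values in the late and early array. Of all 29214 probe sets 169 did.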
